A study of Bos taurus with 24 samples.

Results

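The genes described here were expressed in bovine monocyte-derived macrophages, were low 18 hours after exposure to killed Escherichia coli without having been low at 3 hours. They were chosen by their response, which is the log2 CPM (read counts scaled to the size of the library, TMM-normalized) of the exposed well minus that of the control well, averaged over the 6 pairs of wells at each hour. A gene was kept when its mean CPM was at least 5 in 1 of the 4 conditions, its response at 18 h was at most -2 and its response at 3 h was at least -0.5. Of 24616 genes listed, 9727 passed the CPM minimum, 348 of these (3.58%) had an 18 h response of at most -2, and 196 also met the 3 h threshold. The genes E2F1, TPCN1, RBL1 and RAB38 were left out by the rule, of which 1, E2F1, met the thresholds. This left 195 late-repressed genes, 71 of them with a gene symbol.

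Macrophages were grown from the blood monocytes of lactating Holstein cows for 6 days with the bovine growth factor GM-CSF at 5 ng/ml. High responders (HR) and low responders (LR) were cows grouped beforehand by how much nitric oxide their macrophages made after E. coli, with 3 cows in each group. Their ages are not given in the sources used here. For each cow, at 3 and at 18 h, 1 well was left as control and 1 was exposed to paraformaldehyde-inactivated E. coli at a multiplicity of infection of 5. The 24 libraries thus formed 8 groups of 3, and a pair is the control and exposed library with the same library code (91 to 94), responder group and hour. The model is a culture of blood-derived cells with dead bacteria, so neither tissue macrophages nor bacterial growth were measured.

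Macrophages grown with this growth factor can still divide, and a dividing cell makes the proteins of DNA replication first and those of chromosome condensation, spindle assembly and cytokinesis afterwards. Macrophages also carry scavenger receptors, lipid enzymes and surface glycoproteins with which they take up lipoproteins and dying cells. Bacterial products that act through Toll-like receptors are known to stop macrophage proliferation and to change this surface repertoire.

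Library totals ran from 6297189 to 20936550 counts. Of 12 macrophage markers, 5 had an identifier, and their summed level was 2505 to 4108 CPM in the 18 h control wells and 2411 to 3928 CPM in the 18 h exposed wells. The 5 markers did not move together: the 18 h response was 0.62 for CD68, the marker with the highest level, and -0.32 for FCER1G, -0.75 for CD14, -0.95 for AIF1 and -3.76 for MSR1, itself 1 of the 195 genes. The only markers of other cells that had an identifier were CD79A of B cells, PRF1 of NK cells and LUM of fibroblasts. Their highest values at 18 h were 1.31, 3.43 and 0.772 CPM, and PRF1 had a median of 0.477 CPM in control and 2.61 CPM in exposed wells. None of these 3 lists could be read beyond 1 gene, and the lists for T cells, neutrophils, dendritic cells and platelets or red cells were not analysed here for want of identifiers. In bulk RNA, fewer cells of a kind and less RNA per cell cannot be told apart.

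The 195 genes were chosen on the values of this paragraph, which are therefore a description. Their median response was -2.56 at 18 h (range -6.86 to -2.01) and -0.18 at 3 h (range -0.50 to 3.77), beside medians of 0.01 and -0.02 over the 9727 genes with enough counts. At 18 h the response was below 0 in all 6 pairs for all 195 genes, and for 173 of them no exposed well reached the lowest control well. At 3 h, 146 genes had a response below 0 and 49 were at or above 0, and for 2 genes the control and exposed wells did not overlap. How many of the 9727 genes had wells apart in this way was not counted, so the counts 173 and 2 describe the 195 only. The rule set no upper limit at 3 h, where 7 genes had a response of at least 0.5 and 2 of at least 1. Applied to the deposited TPM, the same thresholds chose 62 genes, 50 of them among the 195. The median over genes of the mean CPM was 28.5 in control and 5.00 in exposed wells at 18 h, against 20.6 and 18.3 at 3 h. Together the 195 genes held 24605 to 46781 CPM in the 18 h control wells and 4238 to 11143 CPM in the exposed wells.

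**Figure D1:**
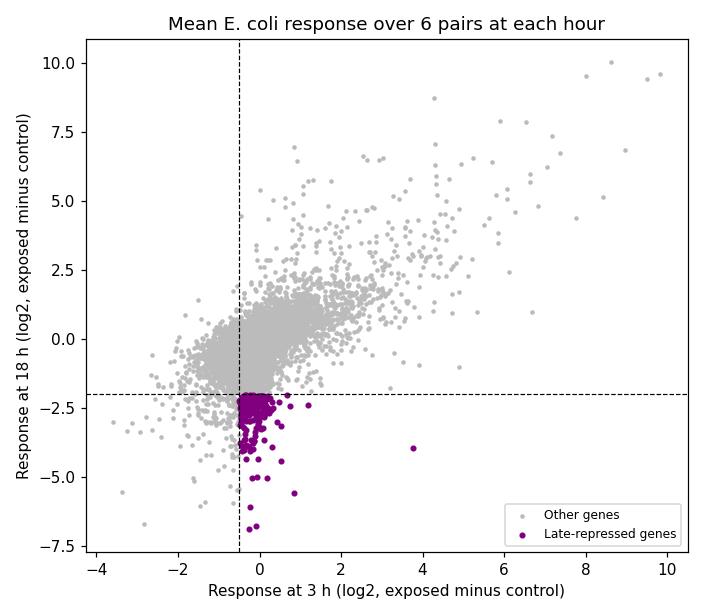
Each point is 1 of 9727 genes, with its mean response at 3 h on the x axis and at 18 h on the y axis (log2, exposed minus control, mean of 6 pairs). Purple points are the 195 late-repressed genes, and the dashed lines mark the thresholds of -0.5 and -2 that chose them; the purple point far to the right is CCL8, at 3.77 and -3.94.

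The thresholds cut through a continuous distribution. Just inside the 18 h limit stood ADA, an enzyme of purine breakdown, at -2.03, with 2 genes without a symbol at -2.01. Just outside stood a gene without a symbol at -1.998, the replication helicase subunit MCM7 at -1.996 and the mitotic regulator BIRC5 at -1.99. At the 3 h limit, CKAP2 (-0.49) and TOP2A (-0.48) were inside with a gene without a symbol at -0.50, whereas E2F8 (-0.51), CENPF (-0.50) and PILRA (-0.50) were outside.

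Pair by pair, the median 18 h response of the 195 genes was -2.68, -2.51 and -3.24 in the high responder pairs coded 91, 93 and 94, and -2.48, -2.24 and -2.18 in the low responder pairs coded 91, 92 and 94. The pair HR 94 had the lowest median. At 3 h the 6 medians lay between -0.29 and -0.11, with the responder groups interleaved.

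**Figure D2:**
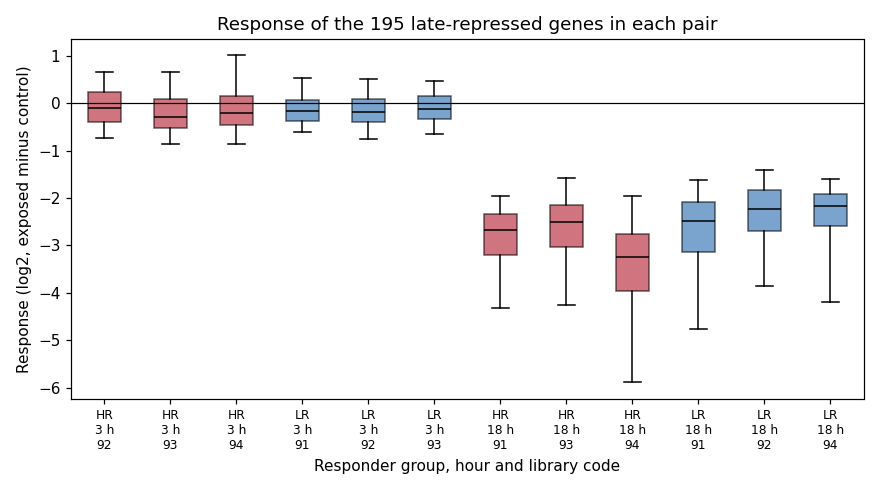
Box plots of the response of the 195 late-repressed genes in each of the 12 pairs (log2, exposed minus control; line, median; box, quartiles; whiskers, 5th to 95th percentile), with high responders in red and low responders in blue. The boxes straddle 0 at 3 h and lie below it at 18 h, lowest in HR 94 with a median of -3.24.

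Among the 71 genes with a symbol, 30 act in mitosis and chromosome structure and 8 in DNA replication and repair. A further 12 are macrophage surface, secreted and lipid genes, 5 are metabolic enzymes and 16 serve transport, the cytoskeleton and other functions. These 5 roles were assigned after the values were seen. Symbols came from name tables that are ordered in part by the responder comparison at 18 h: of the genes with an unadjusted p below 0.05 in that comparison 57.8% had a symbol, against 11.1% of the others. The roles therefore describe the named genes and not the 124 genes without a symbol. The same limit holds for the fixed gene lists, since only genes with a symbol could be found on them.

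The mitosis genes had 18 h responses from -3.13 to -2.04 (median -2.36) and 3 h responses from -0.49 to 0.20. The rule itself set the upper limit of -2 at 18 h and the lower limit of -0.5 at 3 h. MKI67, the proliferation marker Ki-67 that coats mitotic chromosomes, ran from 288 to 572 CPM (median 376) in the 18 h control wells and from 24.9 to 97.5 CPM (median 58.2) in the exposed wells. At 3 h it ran from 146 to 457 CPM in control and from 122 to 300 CPM in exposed wells. The 3 h wells overlapped and the 18 h wells did not, and the response was -0.08 ± 0.56 at 3 h and -2.77 ± 0.57 at 18 h (SD, n = 6 pairs).

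TOP2A, the topoisomerase that untangles sister chromatids, went from 92.6 to 202 CPM (median 133) in 18 h control wells to 8.21 to 22.5 CPM (median 14.8) in exposed wells, a response of -3.13 ± 0.55 (SD, n = 6). CCNB1, the B-type cyclin that starts mitosis, stood at 31.4 to 68.3 CPM (median 45.3) in control and 2.95 to 12.01 CPM (median 7.52) in exposed wells. Its kinase partner CDK1 stood at 28.1 to 63.0 CPM (median 45.1) and 4.11 to 16.1 CPM (median 9.32). For all 3 genes every exposed well lay below every control well at 18 h. The other members of the fixed mitosis list responded at 18 h as follows: the kinesins KIF2C (-2.68) and KIF23 (-2.09), the cortex scaffold ANLN (-2.24), the spindle proteins CKAP2 (-2.32), DLGAP5 (-2.23) and TPX2 (-2.12), the kinase AURKB (-2.15) and the cyclin CCNB2 (-2.04).

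The fixed mitosis list held 36 genes, 18 of which had an identifier, and all 18 had enough counts. Of these, 17 had an 18 h response of at most -2, 12 being late-repressed and 5 already below -0.5 at 3 h. The median responses of the 18 were -0.31 at 3 h and -2.28 at 18 h. The other 6 genes included CENPF (-2.88), BIRC5 (-1.99), BUB1 (-2.54) and CDC20 (-3.05). BUB1 (-0.53) and CDC20 (-0.98) had 3 h responses below the limit, and BIRC5 (-0.09) was left out by the 18 h limit.

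The DNA replication list divided differently. Of 38 genes 22 had an identifier, and 10 of these had an 18 h response of at most -2, of which 4 were late-repressed and 6 were below -0.5 at 3 h. The median 3 h response of the 22 was -0.69, and at 18 h it was -1.97. The 4 late-repressed genes were MCM2 and MCM3, subunits of the replicative helicase, the DNA ligase LIG1 and UHRF1, which recruits the maintenance DNA methyltransferase to newly copied DNA. The genes of the list outside the group with the highest control level were RRM1 (3 h -0.79, 18 h -1.32), MCM7 (-0.30 and -1.996), MCM5 (-0.64 and -2.69) and FEN1 (-0.44 and -0.84). The difference in timing between these lists was not tested, since both were read through the response that chose the genes.

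UHRF1 ran from 37.5 to 84.4 CPM (median 61.4) in the 18 h control wells and from 3.85 to 7.65 CPM (median 6.15) in the exposed wells. At 3 h its wells overlapped, with medians of 36.7 CPM in control and 41.2 CPM in exposed wells, so that its response was 0.04 ± 0.30 at 3 h and -3.25 ± 0.73 at 18 h (SD, n = 6). MCM2 stood at 38.9 to 79.4 CPM in 18 h control and 4.11 to 10.1 CPM in exposed wells, and MCM3 at 67.8 to 117 CPM and 10.4 to 24.7 CPM. LIG1 (-2.20) and FANCI (-2.46), a protein of interstrand crosslink repair and the only gene of 8 with an identifier on the DNA repair list that was late-repressed, had responses nearer to the limit.

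**Figure D3:**
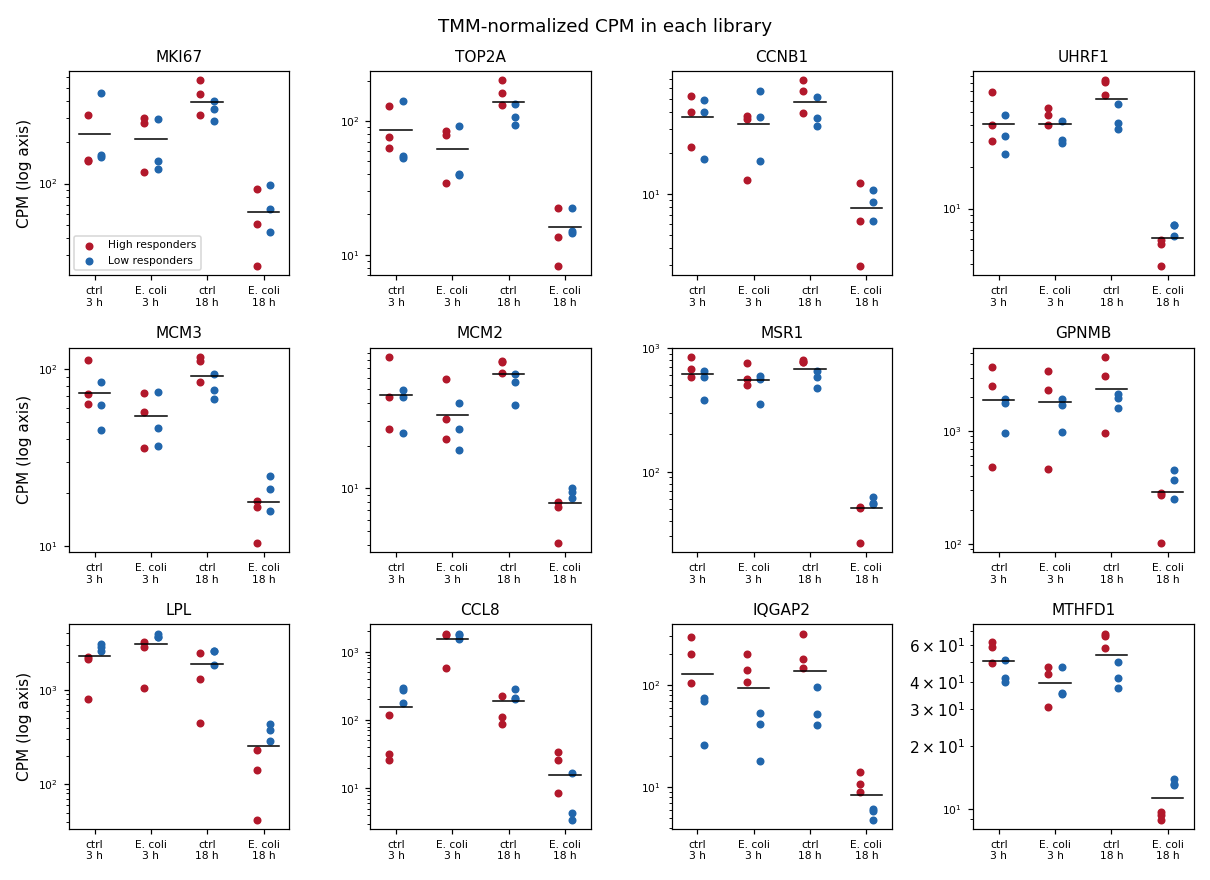
TMM-normalized CPM (log axis) of 12 late-repressed genes in every library; red points are high responders, blue points low responders, and the black line is the mean of the 6 wells. Control and exposed wells overlap at 3 h in every panel but CCL8 and separate at 18 h, as for MKI67 with medians of 376 and 58.2 CPM.

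The 12 macrophage genes had 18 h responses from -3.94 to -2.07 (median -2.72). Per length, GPNMB, LPL, FCGRT and MSR1 had the highest control levels of the 71 named genes at 18 h, at means of 1319, 789, 626 and 535 TPM (the length-scaled unit as deposited). MSR1, the class A scavenger receptor for modified lipoproteins and bacteria, ran from 471 to 797 CPM (median 710) in the 18 h control wells and from 26.6 to 62.2 CPM (median 53.4) in the exposed wells. At 3 h it was at 383 to 848 CPM and 352 to 759 CPM, and its response was -0.16 ± 0.08 there and -3.76 ± 0.64 at 18 h (SD, n = 6). The 3 h wells overlapped across cows, although the 18 h wells were far apart.

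GPNMB, a transmembrane glycoprotein of lipid-laden and tissue-repair macrophages, went from 967 to 4586 CPM (median 2063) in 18 h control wells to 102 to 453 CPM (median 277) in exposed wells, a response of -3.02 ± 0.77 (SD, n = 6). LPL, the lipase that frees fatty acids from lipoproteins, went from 451 to 2611 CPM (median 2146) to 42.1 to 437 CPM (median 259). Its response was 0.43 ± 0.10 at 3 h and -3.01 ± 0.39 at 18 h (SD, n = 6). GAS6, the ligand with which TAM receptors recognise dying cells, had a response of -2.08, and with MSR1 and GPNMB made up the 3 late-repressed genes among the 4 with an identifier on the list of 26 alternatively activated and tissue macrophage genes. On the list of cholesterol and lipid handling, LPL was the only late-repressed gene of 9 with an identifier.

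CCL8, a monocyte-attracting chemokine, had responses of opposite sign at the 2 hours. At 3 h it ran from 26.2 to 291 CPM (median 147) in control and from 583 to 1829 CPM (median 1748) in exposed wells, and at 18 h from 88.0 to 288 CPM (median 207) in control and from 3.45 to 33.3 CPM (median 12.5) in exposed wells. Neither hour showed overlap. Its response was 3.77 ± 1.32 at 3 h and -3.94 ± 1.76 at 18 h (SD, n = 6).

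MPEG1, the pore-forming perforin-2 that macrophages use against engulfed bacteria, had a median of 1240.2 CPM in control and 230 CPM in exposed wells at 18 h, and FCGRT, the neonatal Fc receptor that recycles IgG and albumin, 593 CPM and 127 CPM. TNFSF13, the B cell survival factor APRIL, stood at 15.5 to 58.6 CPM in 18 h control and 1.33 to 3.34 CPM in exposed wells, a response of -3.87 ± 0.32 (SD, n = 6). These 3 genes did not overlap between control and exposed wells at 18 h. The lists of lysosome genes, macrophage transcription factors, pattern recognition receptors, chemokine and G protein coupled receptors and growth factor receptors, with 8, 7, 10, 8 and 8 identifiers, held no late-repressed gene. On these lists MAF (3 h -3.25, 18 h -3.32) and GPR34 (-2.82 and -6.68) were below -2 at 18 h but were already low at 3 h.

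The remaining named genes, with low responses or high control levels, were of mixed function. IQGAP2, a scaffold of the actin cytoskeleton, had a response of -3.77, with 41.0 to 318 CPM in 18 h control and 4.80 to 14.1 CPM in exposed wells. ATP13A2, a lysosomal polyamine transporter, was at -3.27 and AKR1B1, the aldose reductase, at -3.20. GLIPR1 was at -3.15, the phospholipid flippase ATP10A at -2.97 and the orexin receptor HCRTR1 at -2.96. TNS1, which links actin to integrins, varied least of these 7 between pairs, at -2.52 ± 0.23 (SD, n = 6). Only ATP10A among these had exposed wells that reached the control range, with 2.17 CPM as the highest exposed and 2.12 CPM as the lowest control value.

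The lowest responses of all belonged to genes without a symbol. ENSBTAG00000019669 ran from 79.1 to 1721 CPM (median 537) in the 18 h control wells and from 1.01 to 11.2 CPM (median 4.81) in the exposed wells, a response of -6.86 ± 1.09 (SD, n = 6). ENSBTAG00000020676 had the highest level, a mean of 15843 CPM in control and 3965 CPM in exposed wells at 18 h, also per length (10511 and 2154 TPM).

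Control wells of the 3 h and 18 h samples were normalized apart, and the choice of genes used the same wells, since a low 18 h response favours a high 18 h control level and the 3 h limit favours a low 3 h control level. Their ratio is therefore a description that supports nothing further. The median over the 195 genes of the log2 ratio of mean control CPM, 18 h over 3 h, was 0.35, against 0.16 over the 9727 genes. All 30 mitosis genes and all 8 replication and repair genes were higher in the 18 h control wells, with median log2 ratios of 0.52 and 0.47, while the 12 macrophage genes had a median of 0.08 and 8 of them were higher. MKI67 had control means of 231 CPM at 3 h and 398 CPM at 18 h and TOP2A of 85.9 and 138 CPM. The exposed wells at 18 h, with means of 62.4 and 16.0 CPM, were also below the 3 h control wells.

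**Figure D4:**
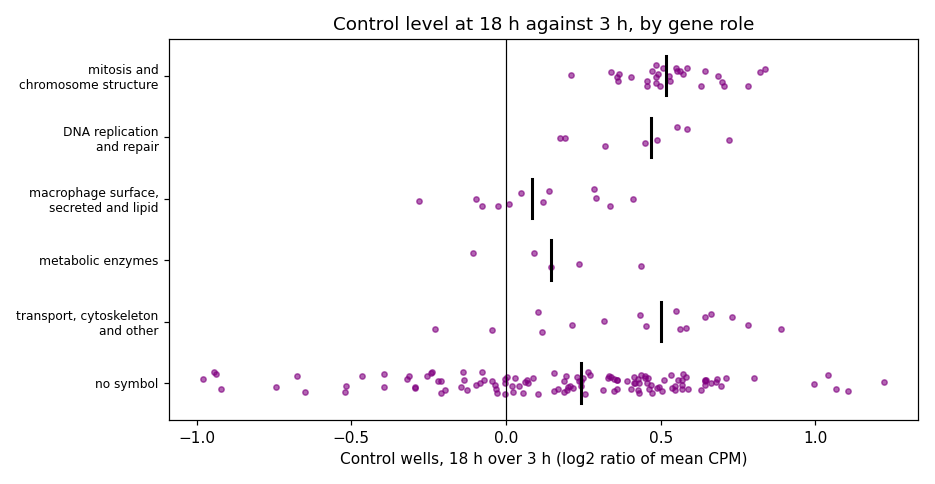
Log2 ratio of the mean CPM of the 6 control wells at 18 h over those at 3 h for each of the 195 late-repressed genes, by role; black bars are medians. Every mitosis and replication gene lies to the right of 0, with medians of 0.52 and 0.47, whereas the macrophage genes centre at 0.08.

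Whether high and low responders differed in these genes was asked of contrasts that the response thresholds did not use. The CPM minimum was a mean over both responder groups, so a gene could pass it through 1 group. In 18 h control wells, ENSBTAG00000013429 had 3.14, 4.26 and 23.1 CPM in high and 0.20, 0.40 and 0.23 CPM in low responders. ENSBTAG00000045896 had 0.73, 1.12 and 0.07 CPM in high and 2.02, 17.0 and 9.87 CPM in low responders. Such genes stayed in the counts of all contrasts, where they are a description only. The response at 18 h of high minus low responders was fitted with a term for each pair by edgeR's quasi-likelihood test, and a gene was called at a Benjamini-Hochberg adjusted p below 0.05 over all genes tested with a fold above 1.5. Of 11759 genes 190 (1.62%) were called, 33 of them (0.281%) with a lower response in high responders. All 195 late-repressed genes were tested and 7 were called, all 7 lower in high responders. At an unadjusted p below 0.05, 82 of the 195 passed against 17.6% of all genes, and 77 of these were lower in high responders against 8.09% of all genes. The median difference was -0.54 over the 195 genes and -0.02 over all genes tested, with 152 of the 195 below 0. The median over the 195 genes was -0.39 without HR 94 and -0.71 without HR 93. All genes were read in the same 3 high and 3 low responder pairs, so counts of genes are not counts of independent observations. In 75 of the 195 the 3 high responder pairs all lay below the 3 low responder pairs, as for 11.1% of all genes tested, and in 5 they all lay above, as for 11.7% of all genes tested.

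The calls depend on single cows and on the fit, over all genes as well as over the 195. DESeq2 called 19 of the 195 (3.36% of all genes), 17 of them lower in high responders, and none was called by edgeR without LR 92 (63 at an unadjusted p below 0.05), where 30 of all 11867 genes (0.253%) were called. Without the pair term edgeR called 0 of all 11759 genes (1150 at an unadjusted p below 0.05, 29 of them among the 195). Leaving out HR 94 gave 2 calls (1.07% of all genes), HR 91 gave 3 (1.07%), LR 94 gave 3 (0.638%) and HR 93 gave 12 (1.49%). With a term for the library code, added after seeing the data, UHRF1 and MTHFD1 were called (0.57% of all genes), and the other genes called were not: the adjusted p was 0.0869 for LPL, 0.108 for MYBL2, 0.1004 for TINAGL1, 0.105 for MCM3 and 0.122 for FKBP9. The 152 genes with an 18 h response of at most -2 that were already below -0.5 at 3 h had a median difference of -0.59 with 4 called, so a lower response in high responders was not shown to be particular to the late-repressed genes; the difference between these sets was not tested.

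The 7 genes called all had symbols. UHRF1 had 18 h responses of -3.75, -3.88 and -4.05 in the high responder pairs 91, 93 and 94 and of -2.68, -2.29 and -2.87 in the low responder pairs 91, 92 and 94. The pairs did not overlap, and the difference was -1.28 ± 0.19 (SE; edgeR adjusted p = 0.0138). MTHFD1, an enzyme of one-carbon metabolism that supplies nucleotide synthesis, had -2.56, -2.91 and -2.81 against -1.67, -1.50 and -1.83, a difference of -1.10 ± 0.16 (SE; edgeR adjusted p = 0.0134). These were the genes called in most alternatives, in 11 of 13 each.

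LPL had 18 h responses of -3.21, -3.43 and -3.42 in high responders and -2.66, -2.55 and -2.79 in low responders, a difference of -0.69 ± 0.13 (SE; edgeR adjusted p = 0.0319). It was called in none of the 6 fits that left out 1 pair. MCM3 had -2.73, -2.70 and -3.01 against -2.25, -1.69 and -1.92, a difference of -0.86 ± 0.17 (SE; edgeR adjusted p = 0.0391). MYBL2, a transcription factor of the cell cycle, had -2.82, -3.21 and -3.63 against -2.29, -2.24 and -1.91, with a difference of -1.05 ± 0.21 (SE; edgeR adjusted p = 0.0404). In all 3 genes the responder groups were apart, and MCM3 and MYBL2 were called in 1 of the 6 fits without a pair.

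TINAGL1, a matricellular protein of basement membranes, had -3.40, -2.87 and -3.53 in high responders and -2.19, -1.68 and -2.38 in low responders, a difference of -1.18 ± 0.22 (SE; edgeR adjusted p = 0.0335). FKBP9, a prolyl isomerase of the endoplasmic reticulum, had -2.88, -2.37 and -2.96 against -1.55, -1.36 and -1.85, a difference of -1.11 ± 0.23 (SE; edgeR adjusted p = 0.0448). Both separated the groups, and each was called in 1 of the 6 fits without a pair.

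**Figure D5:**
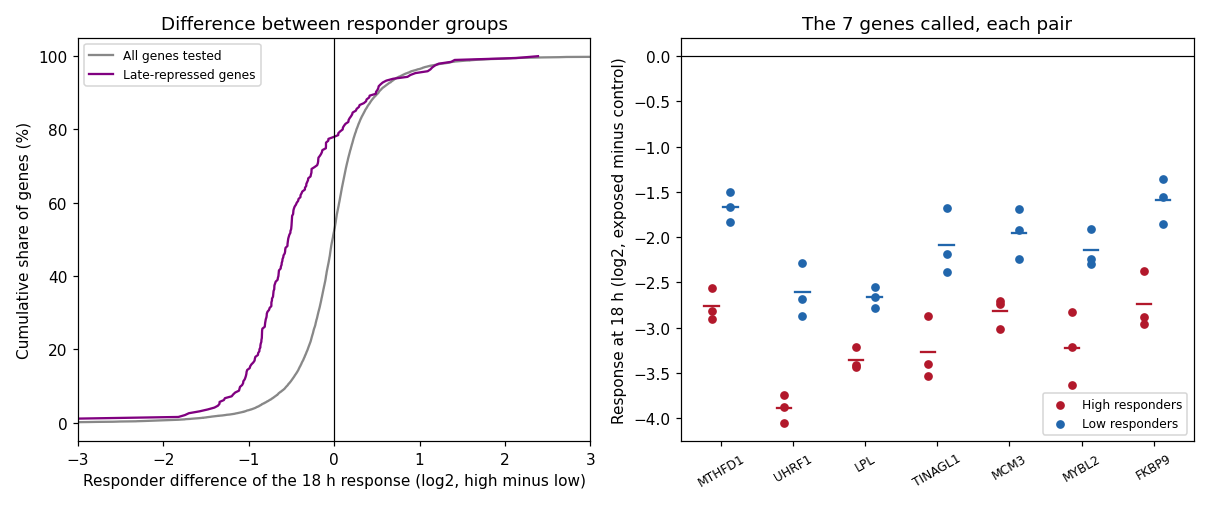
Left, cumulative share of genes (%) by the difference of the 18 h response, high minus low responders (log2), for all 11759 genes tested (grey) and the 195 late-repressed genes (purple), whose medians are -0.02 and -0.54. Right, the 18 h response of the 7 genes called in each pair, with high responders in red, low responders in blue and bars at the group means; the groups do not overlap in any of the 7.

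Of the 12 macrophage genes, 6 had a difference below 0, and the median was -0.08. At an unadjusted p below 0.05 by edgeR, 4 were lower and 4 higher in high responders. GPNMB differed by -1.16 ± 0.29 (SE, edgeR adjusted p = 0.0764) and MSR1 by -0.93 ± 0.24 (SE, edgeR adjusted p = 0.0883). A few other macrophage genes had positive differences that edgeR did not call at an adjusted p below 0.05. Of these, SIGLEC1 and VSIR were picked out after their values were seen. Both were called at an adjusted p below 0.1 and by DESeq2, and both, with CCL8, were called by edgeR with no filter on low counts. SIGLEC1, the sialoadhesin of macrophages, had 18 h responses of -1.95, -0.99 and -2.27 in high responders and -3.94, -3.15 and -4.62 in low responders, a difference of 2.13 ± 0.47 (SE; edgeR adjusted p = 0.0589). VSIR, an inhibitory checkpoint receptor, differed by 1.41 ± 0.35 (SE; edgeR adjusted p = 0.0748) and CCL8 by 2.39 ± 0.70 (SE; edgeR adjusted p = 0.120). The level of SIGLEC1 in 18 h control wells, high minus low responders, differed by -2.13 on the log2 scale (edgeR adjusted p = 0.067), and in exposed wells by -0.08 (edgeR adjusted p = 0.93).

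The remaining contrasts called no late-repressed gene by edgeR. For the 3 h response, 20 of 11264 genes (0.178%) were called and none of the 195. Of the latter, 17 had an unadjusted p below 0.05 (12.7% of all genes), and DESeq2 called 3 (1.68% of all genes). Without HR 94, edgeR called 7 (4.47% of all genes). In the 18 h control wells, 17 of 11356 genes (0.15%) were called and none of the 195. There 70 of the 195 had an unadjusted p below 0.05 (21.7% of all genes), 57 of them higher in high responders against 11.1% of all genes, and DESeq2 called 43 (6.09% of all genes), 33 of them higher. Without HR 93 edgeR called 4 (1.12% of all genes), and without HR 94 it called 1 (0.087%). The median difference was 0.28, against 0.01 over all genes, and it was 0.16 without HR 93 and 0.43 without LR 94.

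In the 18 h exposed wells, 179 of the 195 genes had enough counts to be tested and none was called, against 5 of 11210 genes (0.0446%). There 40 had an unadjusted p below 0.05 (18.2% of all genes), DESeq2 called 17 (5.72% of all genes) and the median difference was -0.29. The median was -0.0036 without HR 94, -0.10 without LR 94 and -0.57 without HR 93. Without LR 94, edgeR called 3 (0.459% of all genes). In the 3 h control wells 1 of 11034 genes (0.00906%) was called and none of the 195. Of the latter, 48 had an unadjusted p below 0.05 (7.85% of all genes), DESeq2 called 24 (2.18% of all genes) and the median was 0.07. The median changed sign without LR 92 (-0.11), HR 92 (-0.06) or HR 94 (-0.03), and was 0.01 without LR 91, 0.23 without HR 93 and 0.39 without LR 93. Without HR 92, edgeR called 2 (0.247% of all genes). The 18 h response, control and exposed contrasts share wells and are given side by side: for UHRF1 the difference was 0.76 in control wells (edgeR adjusted p = 0.078) and -0.50 in exposed wells (edgeR adjusted p = 0.32), and for MTHFD1 it was 0.56 (edgeR adjusted p = 0.077) and -0.54 (edgeR adjusted p = 0.129).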

How the data were processed

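RNA of 24 wells was sequenced as stranded poly(A) libraries. Per the labels the authors trimmed reads with Trimmomatic, checked them with FastQC 0.11.5, aligned them with STAR and quantified them with RSEM. The deposited values are expected counts and TPM per gene, with effective lengths, and the authors tested with DESeq2 1.22.2. Expected counts were rounded, 492 to 852 genes per library being fractional. edgeR 4.0.16 gave TMM-normalized CPM and log2 CPM (prior count 2) at each hour, and quasi-likelihood tests after filterByExpr; DESeq2 1.42.0 in R 4.3.3 was an alternative. SE is the log2 difference divided by the square root of F. Genes with few counts have imprecise responses. Scripts were tested on simulated counts.

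The study's methods pair each exposed well with its control, so the pair term was kept. Deviations from group means correlated at 0.327 to 0.733 in the 12 pairs with 1 code. In the 24 other combinations they correlated at -0.569 to 0.00517. Deviations sum to 0 within a group, so positive values in the pairs by themselves lower those of the other combinations. The methods name 6 cows; which code is which cow across hours is not given. Symbols for 2808 identifiers were read from the study's supplementary name columns. No sequences or coordinates were used.

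The genes and lists were chosen with earlier results of these data known. Named genes were the 15 with a symbol and the lowest 18 h response, the 10 with a symbol and the highest 18 h control CPM, all called genes, list members and those next to the thresholds; others are marked as chosen afterwards. One gene that this rule names is not reported here. The alternatives tried were other size factors, count filters, tools, thresholds, prior counts, TPM, the pair term, a library code term and leaving out each pair.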

Additional observations from a re-analysis of the deposited data

Results flagged for a closer look

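The 18 h response to E. coli differed between responder groups, by the test of the difference itself, for 7 late-repressed genes. On the log2 scale, high minus low responders, the differences were -1.28 for UHRF1, -1.10 for MTHFD1, -0.69 for LPL, -1.18 for TINAGL1, -0.86 for MCM3, -1.05 for MYBL2 and -1.11 for FKBP9 (edgeR quasi-likelihood test with Benjamini-Hochberg adjustment). All 3 high responder pairs were below all 3 low responder pairs for each gene, as for 11.1% of all genes tested. This restates the values of the test and adds no support to it. None of the 7 was called without LR 92 or without the pair term. Groups of 3 were too small for a test of single outlying samples.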

How the results depend on the processing

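The number of late-repressed genes was 62 with TPM as deposited, log2(TPM + 1) and a minimum of 5 TPM, 50 of them shared with the 195, and 177 to 212 without 1 pair; with other size factors, a prior count of 0.5 or 8 groups it was 201, 202 and 205. The median 18 h response of the original 195 genes ran from -2.63 to -2.34 over these alternatives, and from -2.61 to -2.43 without 1 pair. Over the 62 genes chosen with TPM it was -2.26. The median responder difference of the 18 h response ran from -0.71 to -0.39 without 1 pair and was -0.50 with no replicate block. In the counts that follow, the share of all genes tested that were called stands in brackets. Late-repressed genes called for the 18 h response numbered 25 with no filter on low counts (2.77%), 19 by DESeq2 (3.36%) and 25 at an adjusted p below 0.1 (3.81%). By edgeR with no replicate block 0 were called (0 of 11759 genes), with 29 at an unadjusted p below 0.05. With a library code term, chosen after seeing the data, 2 were called (0.57%). Without 1 pair they numbered 0 without LR 92 (0.253%), 2 without HR 94 (1.07%) and 3 without HR 91 (1.07%) or LR 94 (0.638%). The others were 5 without LR 91 (1.29%) and 12 without HR 93 (1.49%). For the 3 h response they were 1 with no filter (0.676%), 3 by DESeq2 (1.68%) and 2 at an adjusted p below 0.1 (1.09%). Without 1 pair they were 0 to 7, 7 being without HR 94 (4.47%). In 18 h control wells they were 16 with no filter (1.45%), 43 by DESeq2 (6.09%), 31 at an adjusted p below 0.1 (4.46%) and 1 with the code term (0.0264%). Without 1 well they were 0 to 4, 4 without HR 93 (1.12%) and 1 without HR 94 (0.087%). In 18 h exposed wells they were 1 with no filter (0.274%), 17 by DESeq2 (5.72%) and 3 at an adjusted p below 0.1 (2.06%). Without 1 well they were 0 to 3, 3 without LR 94 (0.459%). In 3 h control wells they were 24 by DESeq2 (2.18%) and 0 to 2 without 1 well, 2 without HR 92 (0.247%). The cause of these changes was not tested. None of the 7 named differences changed sign under any alternative; counting error limits genes near 0 CPM.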
